A study of Mus musculus with 23 samples.

Results

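Microglia of 3-month-old APP and TAU transgenic mice, 7 samples in all, were taken as 1 side and compared with microglia of 4 wild-type (WT) samples of the same age. These are 11 of the 23 samples of the series, selected by their titles. The APP side holds 3 samples of the APPswlnd strain, mice that make mutant human amyloid precursor protein. The TAU side holds 4 samples of the P301S (PS19) strain, which expresses human mutant tau from the mouse prion protein promoter, mainly in neurons. The labels describe both as being before the onset of pathology. The WT samples are C57BL6. All 11 are ungated CD45+ and CD11b+ cells from cortex and hippocampus, with no treatment. The promoter of the APP transgene, the sex of the mice and the number of animals behind a sample are not given in the sources used here. The samples are titled biological replicates, so p-values measure the spread between these samples. For scale, the differences at 3 months were set beside those of aged microglia. Those groups are Clec7a-gated cells of APPswlnd mice at 12 months (4 samples) and of P301S (PS19) mice at 9 months by the age label (4 samples), against ungated C57BL6 cells at 12 months (4 samples).

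Microglia are the resident macrophages of the brain. In the healthy brain they keep a homeostatic programme of sensing receptors such as P2ry12 and Cx3cr1 that depends on TGF-beta signalling and on transcription factors such as Sall1. Around amyloid plaques and degenerating neurons they take on a disease-associated (DAM) programme in which Apoe, lipid-handling, lysosomal and phagocytic genes rise and homeostatic genes fall, a change that depends in part on the receptor Trem2 and its adaptor Tyrobp. The question of the comparison at 3 months is whether the transgenic lines differ from WT ahead of pathology, which genes shift alike in both lines, and how large a change of the DAM and homeostatic genes the data would still allow.

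No autosomal gene separated young APP and TAU microglia from young WT microglia at an adjusted p under 0.05. Limma called 0 of 18726 autosomal probe sets (0%), and the lowest adjusted p was 0.391. At an unadjusted p under 0.05, 438 probe sets were higher (2.34%) and 353 were lower (1.89%) in the transgenic samples. The counts called were also 0 for APP against WT, for TAU against WT and for APP against TAU, with 504, 838 and 400 probe sets at an unadjusted p under 0.05. In each comparison the unadjusted count, 791 for the pooled one, was under the 936.3 that the threshold gives if no gene differs. The median autosomal probe set differed by 0.004 on the log2 scale with a median standard error of 0.176, so the arrays as a whole were level.

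The values are log2 signals, and a signal was called at background when it lay under the 95th percentile of 1442 chemosensory receptor probe sets, genes that microglia are not known to use. That level was 7.91 over the 7 transgenic samples and 7.73 over the WT samples, and 7008 of 18674 autosomal symbols were above it. The cell label held on its markers, since all 38 measured homeostatic microglial genes were above background. The Y-linked genes, used only as a check of the samples, did not follow the labels evenly. Kdm5d read 4.04, 4.48 and 3.89 in APP samples and 7.71, 4.59, 4.46 and 4.0 in TAU samples, against 7.58, 8.25, 7.87 and 7.55 in WT samples. All APP samples and 3 of the 4 TAU samples thus had low Y-linked signal, while TAU replicate 1 and all WT samples had high signal. Line and Y-linked level cannot be told apart except through TAU replicate 1, on which a fit that adjusts for Y-linked level rests.

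No DAM gene differed between the transgenic and the WT microglia at an adjusted p under 0.05. Of 49 listed genes 43 were measured, 29 of them above background, and 0 were called by limma in the pooled, APP or TAU comparison. At an unadjusted p under 0.05, 1 was higher (Fabp5) and 3 were lower (Plin2, Mamdc2 and Ch25h), and of these 4 only Plin2 was above background. The median log2 difference over the list was -0.06, with -0.05 in APP and -0.12 in TAU, beside 0.004 over all autosomal probe sets. Of the 29 genes above background, 27 had a whole 95% confidence interval inside a 2-fold change either way and 10 inside 1.5-fold. These intervals are for the mean over both lines and do not bound either line by itself. The share inside 2-fold over all autosomal probe sets above background was 93.8%. With the 14 genes at background, whose dim probe sets set no limit, the counts were 39 of 43 (90.7%) inside 2-fold and 19 (44.2%) inside 1.5-fold, beside 95.9% and 63.8% of all autosomal probe sets. These limits depend on Y-linked level. After adjustment for it 17 of the 43 intervals lay inside 2-fold, the median difference was 0.21 and the highest upper bound was 2.60. A typical DAM interval reached 0.44 log2 units to each side of its estimate.

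**Figure D1:**
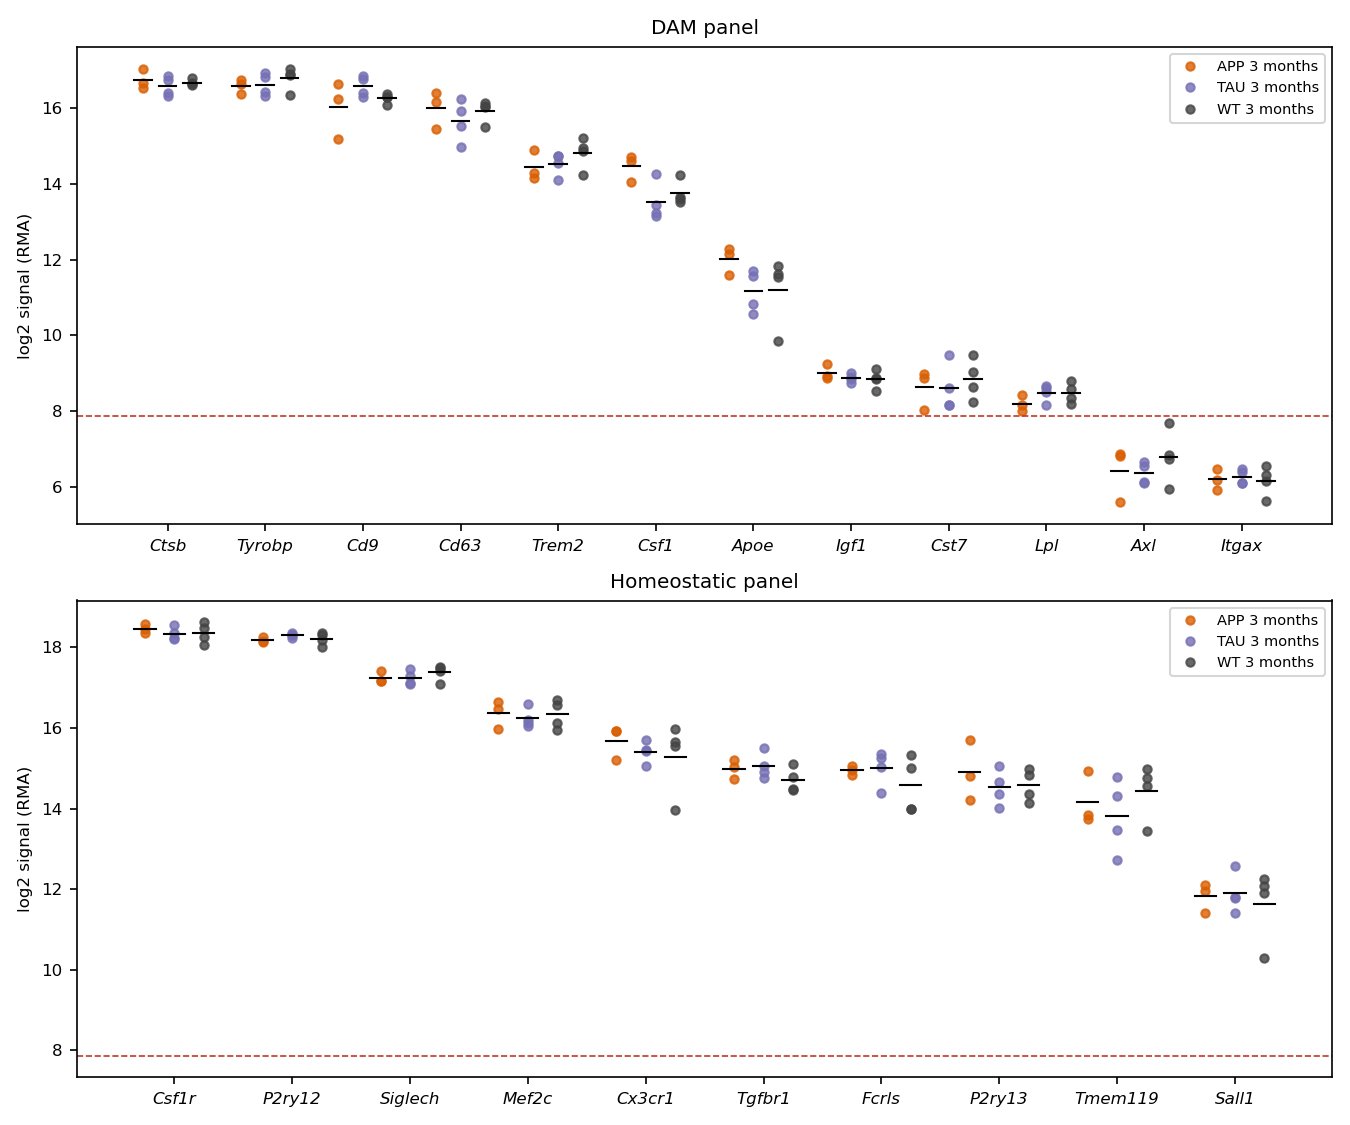
Log2 signal (vertical axis) of the DAM panel (top) and the homeostatic panel (bottom) in each 3-month sample, with APP, TAU and WT from left to right within each gene; black bars are group means and the dashed line is the background level of 7.87 over the 11 samples. The 7 transgenic samples overlap the 4 WT samples for every gene shown, and Axl and Itgax lie under the line.

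Among the DAM surface receptors, Trem2, the lipid-sensing receptor of microglia, read 14.89, 14.29 and 14.14 in APP samples and 14.74, 14.73, 14.55 and 14.09 in TAU samples, against 14.95, 15.20, 14.87 and 14.22 in WT samples. The groups overlapped, and the difference of -0.32 ± 0.21 (SE) had a 95% interval from -0.78 to 0.14, so the largest change it contained was 1.72-fold. Tyrobp, the signalling adaptor of Trem2, differed by -0.19 with an interval from -0.56 to 0.19, and the tetraspanins Cd9 and Cd63 had intervals from -0.42 to 0.59 and from -0.65 to 0.43. Axl, a receptor for Gas6 in the uptake of dying cells, and Itgax, the integrin CD11c, were at background in both groups. Their intervals (-1.09 to 0.26 for Axl and -0.32 to 0.48 for Itgax) therefore describe dim probe sets and set no limit on a change below detection. Over the 12 receptors measured, 11 intervals lay inside 2-fold, and 0 receptors had an unadjusted p under 0.05.

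The lipid-handling genes held both wide and narrow intervals, and of the 8 measured 5 lay inside 2-fold and 4 inside 1.5-fold. Apoe, the main lipid carrier of the brain, read 12.27, 11.59 and 12.15 in APP samples and 11.69, 11.57, 10.82 and 10.56 in TAU samples, against 9.85, 11.61, 11.53 and 11.83 in WT samples. WT replicate 1 lay apart below the other WT samples, and the groups overlapped. The pooled difference was 0.32 ± 0.36 with an interval from -0.45 to 1.09, so increases of up to 2.12-fold were inside it, and without WT replicate 1 the estimate was -0.14. The APP estimate was 0.80 with an interval from -0.14 to 1.74, which reached past 2-fold. The TAU estimate was -0.05 with an interval from -0.91 to 0.82. Plin2, a coat protein of lipid droplets, read 10, 10.17 and 10.34 in APP samples and 10.1, 10.16, 9.58 and 9.11 in TAU samples, against 10.25, 11.24, 10.24 and 11.07 in WT samples. Its difference of -0.78 ± 0.25 (adjusted p = 0.571, limma) had the lowest bound of the list, at -1.32 or 2.49-fold lower, and an upper bound of -0.24, on the other side from the DAM direction. Fabp5, a fatty acid binding protein, was at background and differed by 0.69, with the highest upper bound of the list at 1.16 or 2.23-fold. Ch25h, which makes 25-hydroxycholesterol, was at background too and was the 1 DAM gene whose groups did not overlap, from 5.06 to 5.39 with a median of 5.23 in the transgenic samples and from 5.40 to 5.64 in WT. Of all 18726 autosomal probe sets, 46 were wholly higher and 61 wholly lower in the transgenic samples. Lpl, the lipoprotein lipase, had an interval from -0.46 to 0.23.

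All 6 measured lysosomal and proteolytic DAM genes had intervals inside 2-fold. Cst7, the cathepsin inhibitor cystatin F, read 8.88, 8.98 and 8.02 in APP samples and 9.49, 8.62, 8.16 and 8.15 in TAU samples, against 9.04, 9.49, 8.63 and 8.25 in WT samples. The largest change inside its interval of -0.90 to 0.42 was 1.86-fold. Ctsb, the protease cathepsin B, was the most tightly bounded DAM gene above background, with an interval from -0.34 to 0.30 and a largest contained change of 1.27-fold.

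The 8 secreted DAM factors also had every pooled interval inside 2-fold. Igf1, the insulin-like growth factor, had an interval from -0.22 to 0.39 and a largest contained change of 1.31-fold. Csf1, the ligand of the microglial survival receptor Csf1r, had an interval from -0.33 to 0.67 over both lines, although the lines lay apart. It read 14.06, 14.71 and 14.60 in APP samples and 13.23, 14.26, 13.45 and 13.15 in TAU samples, against 13.53, 13.61, 13.64 and 14.24 in WT samples. The APP samples were mostly above the others, and APP exceeded TAU by 0.93 (adjusted p = 1, limma), so the pooled value averaged a difference of 0.70 in APP and -0.23 in TAU. The Csf1 interval of APP alone, from 0.10 to 1.31, left out 0 and reached past 2-fold, and that of TAU ran from -0.79 to 0.33. The chemokine Ccl4 had the widest pooled interval of this role, from -0.96 to 0.83. The remaining 9 DAM genes, among them the iron store Fth1 and the hypoxia-responsive transcription factor Hif1a, had intervals inside 2-fold. Hif1a came closest to an increase in this role, at 0.35 with an interval from -0.03 to 0.73.

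**Figure D2:**
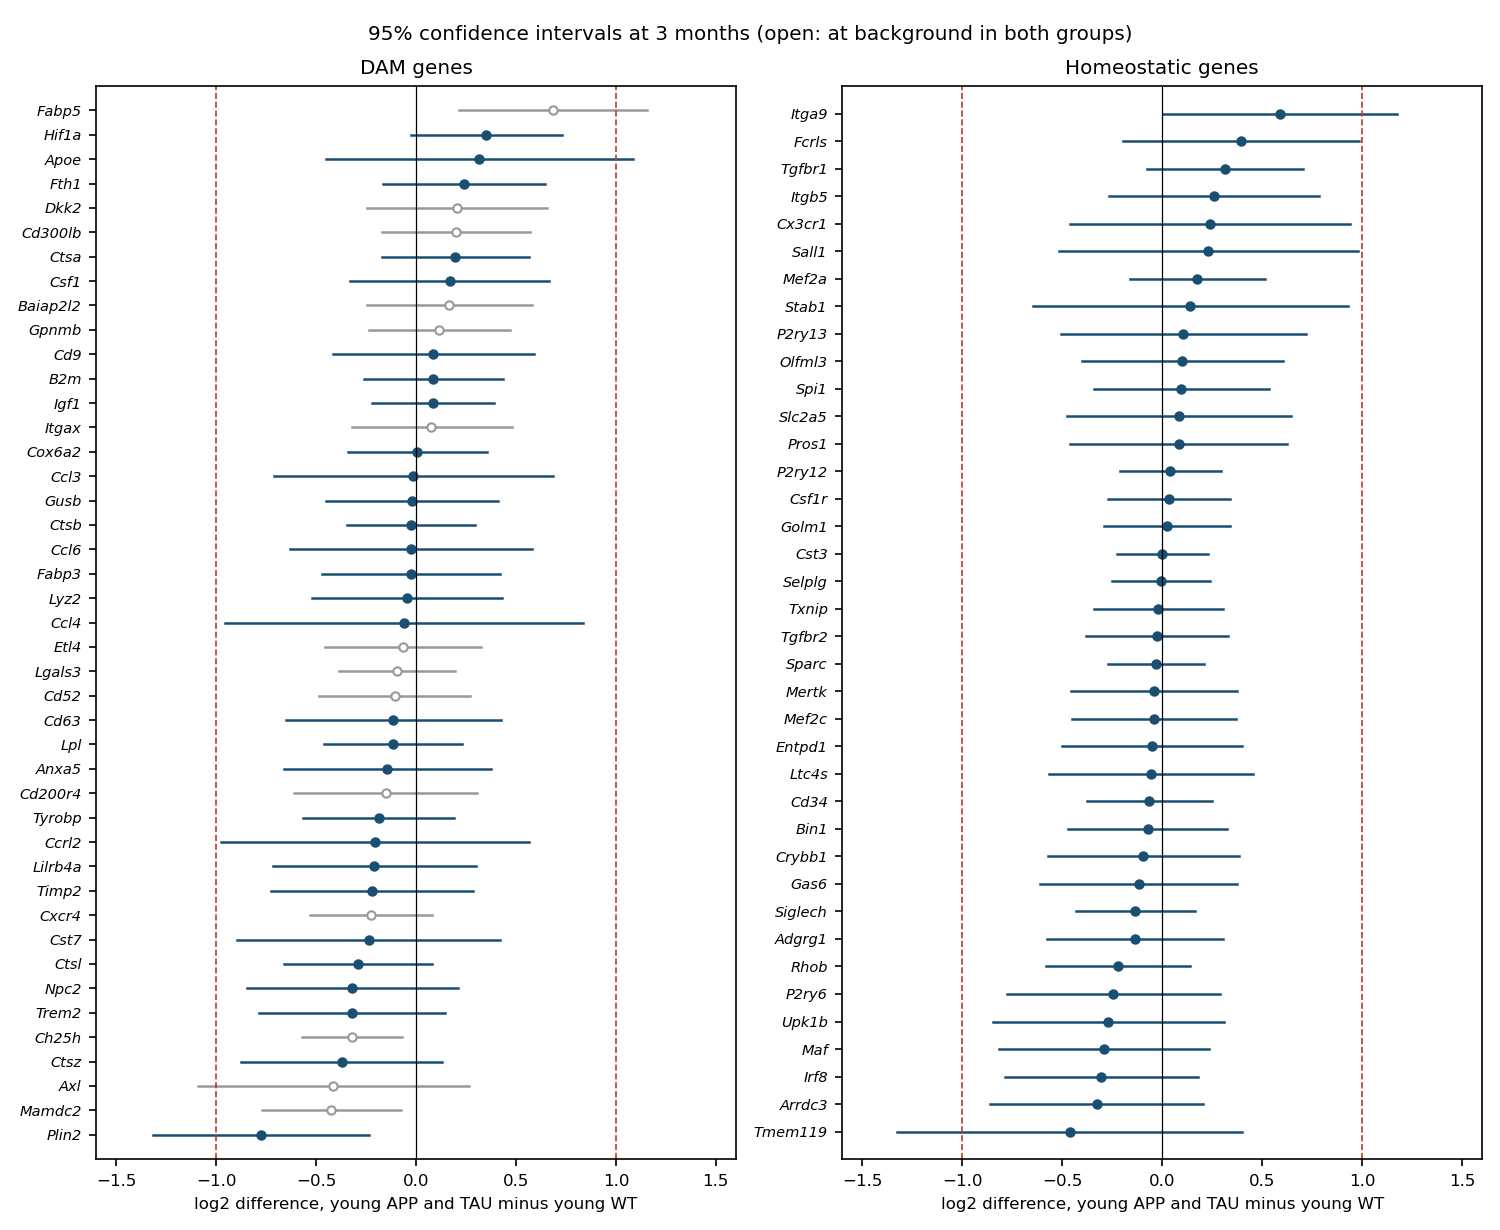
Log2 difference of young APP and TAU minus young WT microglia (horizontal axis) with its 95% confidence interval for the 43 DAM genes (left) and the 38 homeostatic genes (right), ordered by the estimate; open grey symbols are genes at background in both groups and dashed lines mark a 2-fold change. The intervals of 39 DAM and 36 homeostatic genes lie between the dashed lines.

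No homeostatic gene differed at that threshold either. Of 44 listed genes 38 were measured, all above background, and 0 were called by limma. At an unadjusted p under 0.05, 1 was higher (Itga9) and 0 were lower. The median log2 difference was -0.02 over both lines, with 0.02 in APP and -0.05 in TAU. For 36 of the 38 (94.7%) the pooled interval lay inside 2-fold, and for 20 (52.6%) inside 1.5-fold, beside 95.9% and 63.8% of all autosomal probe sets. Over the autosomal probe sets above background, the like set for these genes, 93.8% lay inside 2-fold. The groups overlapped for all 38. Overlap is the common case, since over all 18726 autosomal probe sets the groups were apart for 46 higher and 61 lower. After adjustment for Y-linked level, 16 of the 38 intervals lay inside 2-fold, with bounds reaching -2.08 and 2.40.

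Of the purinergic and other G protein-coupled receptors, P2ry12, which senses ADP and guides microglial processes, read 18.14, 18.16 and 18.25 in APP samples and 18.36, 18.24, 18.30 and 18.30 in TAU samples, against 18.01, 18.30, 18.35 and 18.18 in WT samples. Its values spanned little in any group, and its interval from -0.21 to 0.29 contained no change over 1.22-fold. The highest signal of an array was as low as 19.66, and saturation of such bright probe sets was not tested, so the P2ry12 interval sets no firm limit. P2ry13, a second ADP receptor, had an interval from -0.51 to 0.72. Cx3cr1, the fractalkine receptor, had one from -0.46 to 0.94 around 0.24 (-0.20 without WT replicate 1, which lay lowest at 13.96).

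Of the other surface proteins, Csf1r, on which microglial survival depends, had an interval from -0.27 to 0.34, and the lectin Siglech one from -0.43 to 0.16. Csf1r read from 18.06 to 18.62, as bright as P2ry12, so its interval sets no firm limit either. Tmem119, a microglial membrane protein, read 13.73, 14.92 and 13.85 in APP samples and 14.77, 14.30, 13.46 and 12.73 in TAU samples, against 14.75, 14.97, 14.56 and 13.44 in WT samples. Both groups ranged widely and overlapped. The difference of -0.46 ± 0.40 had the lowest bound of the homeostatic list, -1.33, so a fall of up to 2.51-fold was inside its interval. Itga9, an integrin alpha chain, read 13.50, 14.46 and 13.13 in APP samples and 13, 13.97, 14.23 and 13.86 in TAU samples, against 12.78, 13.27, 13.21 and 13.32 in WT samples. Most transgenic samples lay above WT but the groups overlapped, and the difference of 0.59 (adjusted p = 0.845, limma) had the highest upper bound of the list, at 1.18 or 2.26-fold. Tgfbr1, a receptor of TGF-beta, had an interval from -0.08 to 0.70, and Fcrls, an Fc receptor-like protein, one from -0.19 to 0.98.

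Of the transcription factors, Sall1, which maintains microglial identity, had an interval from -0.52 to 0.98 around 0.23 (-0.22 without WT replicate 1), and Mef2c, which restrains microglial activation, one from -0.45 to 0.37. The narrowest intervals were those of 2 secreted proteins. Cst3, the protease inhibitor cystatin C, read from 19.62 to 19.70 with a median of 19.66 in the transgenic samples, and 19.67, 19.66, 19.67 and 19.64 in WT samples. Its interval ran from -0.23 to 0.23 and that of the matrix protein Sparc from -0.27 to 0.21. Both signals lie at the top of the scale, since the highest signal of an array was as low as 19.66, and whether such bright probe sets were saturated was not tested, so these intervals set no limit. Both are still counted among the 36 homeostatic intervals inside 2-fold and the 20 inside 1.5-fold. Gpr34 and Cybb are X-linked and were left aside by the autosomal rule, and the other listed genes without a value were not analysed here.

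The differences of the gated aged cells give a scale for these bounds. In the 23-sample fit, 40 of the 43 DAM genes were higher in aged gated microglia than in aged WT microglia at an adjusted p under 0.05. Over all autosomal probe sets, 1289 of 18726 were higher and 913 lower. The lists were chosen with earlier results of these data known, so their counts are descriptions. The median log2 difference over the DAM list was 2.47. For 39 of the 40, all but the iron store Fth1, the aged gated difference exceeded the upper bound of the young interval (genes at background included). The test of the aged difference against the young difference called 35 DAM genes higher and 0 lower, where 4.04% of all autosomal probe sets were called higher and 1.94% lower. Cst7 differed by 7.39 in the aged gated comparison and Apoe by 7.36, against upper bounds of 0.42 and 1.09 at 3 months. Axl differed by 7.90 there and was at background at 3 months, where its interval sets no limit. Trem2 and Tyrobp differed by 1.26 and 1.19 in aged gated cells, against upper bounds of 0.14 and 0.19. Of the homeostatic genes, 21 were lower and 3 higher in aged gated cells, each beyond its young interval, with a median of -0.77 over the list, and the test of the 2 differences called 19 lower and 2 higher. P2ry12 differed by -1.35 and Tmem119 by -3.10 in aged gated cells, against lower bounds of -0.21 and -1.33 at 3 months. Age, pathology and the Clec7a gate differ together between these comparisons and cannot be told apart.

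**Figure D3:**
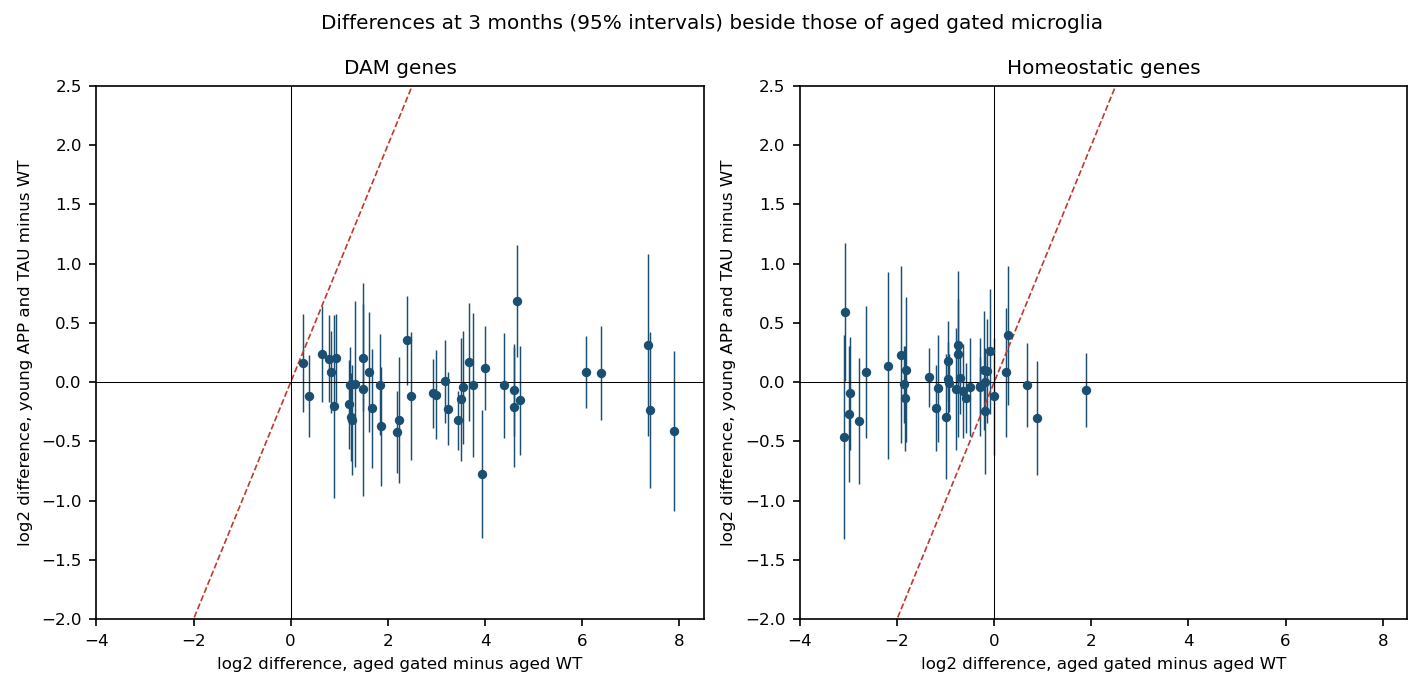
Log2 difference of young APP and TAU minus young WT microglia with its 95% interval (vertical axis) against the log2 difference of aged gated minus aged WT microglia (horizontal axis), 1 point a gene, for 43 DAM genes (left) and 38 homeostatic genes (right); the dashed line marks equal differences. The DAM points spread to 7.90 along the horizontal axis and stay between -0.78 and 0.69 on the vertical axis.

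Shifts seen in both lines were few. A probe set was counted when all 7 transgenic samples lay beyond all 4 WT samples and each line differed from WT in the same direction at an unadjusted p under 0.05. The APP and TAU comparisons share the 4 WT samples, so their likeness is not independent. All 7 lay above all WT samples for 46 of 18726 autosomal probe sets and below them for 61. With the p in each line 25 were higher (0.134%) and 25 lower (0.134%). How many would pass by chance was not computed. The counts are therefore a description and do not show more shifts than chance would give. An adjusted p under 0.05 in each line was met by 0. Of the 50, 6 higher and 9 lower probe sets were above background, and none of the 50 was a DAM or homeostatic gene of the lists.

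Klf6, a zinc finger transcription factor induced early after many stimuli, lay lower in both lines. It read 16.18, 15.99 and 16.49 in APP samples and 15.81, 16.02, 16.47 and 15.88 in TAU samples, against 17.16, 16.87, 16.54 and 17.08 in WT samples. The highest transgenic sample was 0.05 below the lowest WT sample, and TAU replicate 1 was the lowest of the 11. The difference was -0.79 ± 0.17 with an interval from -1.17 to -0.42 (adjusted p = 0.395, limma), made up of -0.69 in APP and -0.87 in TAU.

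Pmaip1, the pro-apoptotic BH3 protein Noxa, lay lower by -0.65 in APP and -0.69 in TAU. It read 8.2, 7.84 and 7.94 in APP samples and 8.14, 8.06, 7.91 and 7.70 in TAU samples, against 8.64, 9.20, 8.34 and 8.41 in WT samples. Smad7, the inhibitory Smad of TGF-beta signalling, differed by -0.48 in APP and -0.53 in TAU, and Sgpl1, which breaks down sphingosine 1-phosphate, by -0.49 and -0.59. Smaller shifts of the same sign were those of Spsb1, a substrate adaptor of ubiquitin ligases (-0.53 over both lines), Nudt18, a nudix hydrolase (-0.49), Irak1bp1, an IRAK1 binding protein (-0.49), and Rmnd5b, a ubiquitin ligase subunit (-0.40). The lowest adjusted p among these 7 was 0.395.

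Among the higher genes, Sel1l2 differed by 0.88 in APP and 1.33 in TAU. It read 9.41, 8.17 and 8.31 in APP samples and 9.52, 9.42, 9.27 and 8.09 in TAU samples, against 7.94, 7.58, 7.62 and 7.86 in WT samples. Its transgenic samples were spread over more than 1 log2 unit, and the lowest of them was 0.15 above the highest WT sample. Stac3, an adaptor of excitation-contraction coupling in skeletal muscle, read 10.63, 10.69 and 10.51 in APP samples and 10.53, 10.39, 10.94 and 11.57 in TAU samples, against 10.25, 9.53, 10.11 and 9.59 in WT samples, a difference of 0.88 over both lines. Sfi1, a centrosomal protein, differed by 1.21 in APP and 0.89 in TAU, with the groups 0.01 apart at their nearest samples. Gm10408 differed by 0.79 over both lines, Ctla2a, a cysteine protease inhibitor, by 0.69, and Nsd2, a histone H3 lysine 36 methyltransferase, by 0.57.

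**Figure D4:**
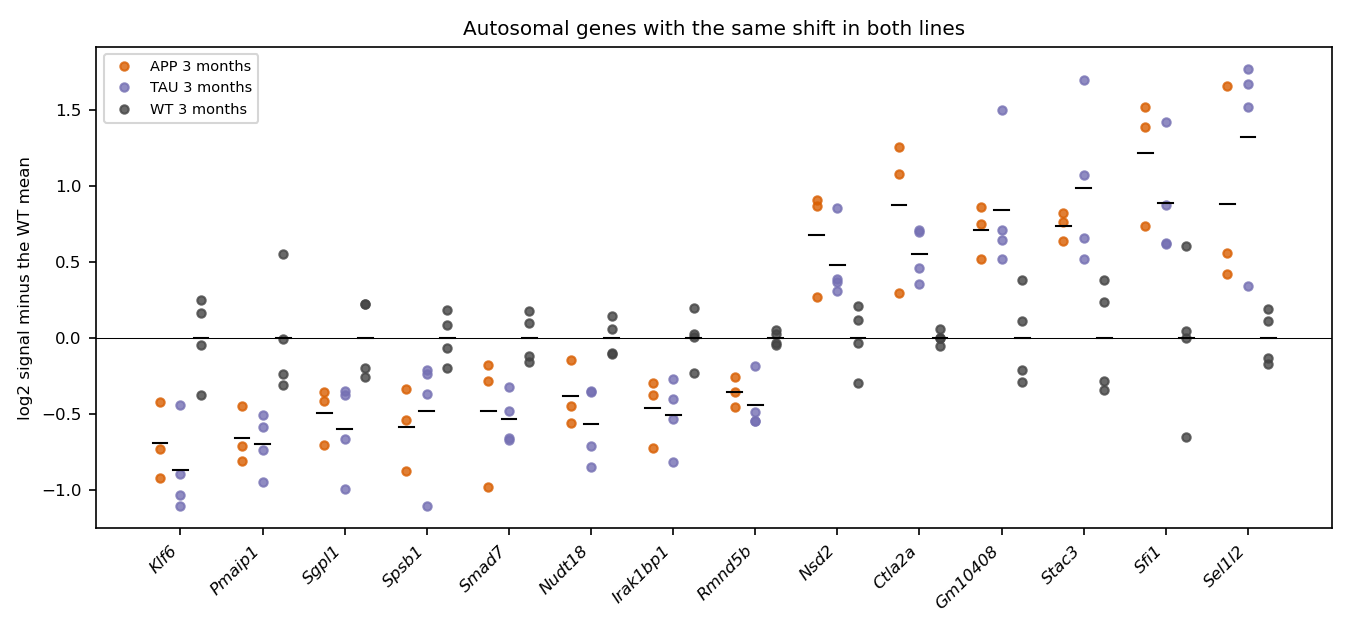
Log2 signal minus the WT mean (vertical axis) of the 14 named genes that met the rule for a shift in both lines, with APP, TAU and WT samples from left to right within each gene and black bars at the group means. All 7 transgenic samples lie beyond the 4 WT samples, as the rule required, with gaps from 0.01 (Sfi1 and Spsb1) to 0.24 (Ctla2a).

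The number of shared shifts varied with the samples in the fit, and leaving out a sample also loosens the rule. It was 45 to 126 leaving out 1 sample. It was 111 without WT replicate 1, 105 without WT replicate 3, 126 without WT replicate 4 and 81 without APP replicate 2, and it was 10 after adjustment for Y-linked level, 8 of them shared with the 50. Klf6 was among the shared shifts in each of these fits.

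Between APP and TAU, 2 of 43 DAM and 2 of 38 homeostatic genes had an unadjusted p under 0.05, and none an adjusted p under 0.05. Over all 18726 autosomal probe sets 400 had such an unadjusted p, so the 4 genes are a description and not a difference between the lines. Beside Csf1, APP exceeded TAU for Olfml3, an extracellular matrix glycoprotein, by 0.76, and for Cd34, a sialomucin, by 0.44, while the chemokine Ccl6 was lower in APP by -0.90 (adjusted p = 1 for each, limma).

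The immediate early and heat shock genes, which cells switch on within minutes of stimulation or stress, were mostly below WT in the transgenic samples before any adjustment for Y-linked level. Of 31 listed genes 30 were measured and 0 were called, but 10 were lower and 0 higher at an unadjusted p under 0.05, where 1.89% of all autosomal probe sets were lower. The list was chosen with earlier results of these data known, so the count is a description. Of the 30, 25 lay below 0, with a median of -0.35 over both lines, -0.38 in APP and -0.33 in TAU. After adjustment for Y-linked level the median was -0.012, so the direction of the list rests on the unadjusted fit.

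The 7 heat shock genes lay furthest below WT, with a median of -1.19 against -0.23 for the 23 immediate early genes. Hsph1, a chaperone of the HSP110 family, read 11.14, 9.20 and 8.80 in APP samples and 9.07, 9.42, 9.90 and 9.44 in TAU samples, against 12.34, 14.37, 11.23 and 8.52 in WT samples. WT replicates 1 and 2 were high and WT replicate 4 was the lowest of the 11 samples, so the groups overlapped. Hspa1a, the inducible HSP70, read 10.77, 9.61 and 8.40 in APP samples and 8.59, 8.82, 9.18 and 8.81 in TAU samples, against 10.96, 12.62, 10.18 and 8.39 in WT samples. Its difference was -1.37, and -0.12 without WT replicates 1 and 2, an alternative chosen after the data were seen. Its near-identical copy Hspa1b followed it at -1.19, and the probe sets may share targets.

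Promoter windows from RefSeq (GRCm38.p6) are shown for 2 of these chaperones because the heat shock genes varied together among the WT samples. The heat shock element was searched as GAANNTTC, which reads the same on both strands, in the 250 bases before and 50 bases after each start. It was found in 5 of the 6 heat shock genes with a window and in 2 of 19 immediate early genes, beside 7.86% of all 32851 windows. The cAMP response element TGACGTCA was found in 0 of the 6 and 2 of the 19 (1.79% of all windows). The CArG box was found in 0 and 2 (1.63%). The 250 bases before the start are printed 5′ to 3′ on the gene's strand, at chr17:34972157-34972406 on the minus strand for Hspa1a and at chr5:135887669-135887918 on the plus strand for Hspb1, a small heat shock protein, with capitals marking the matches.
Hspa1a: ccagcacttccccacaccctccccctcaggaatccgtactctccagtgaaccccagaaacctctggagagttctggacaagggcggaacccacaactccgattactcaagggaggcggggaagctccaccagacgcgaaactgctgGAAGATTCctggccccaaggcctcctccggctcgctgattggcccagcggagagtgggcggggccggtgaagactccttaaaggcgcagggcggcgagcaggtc
Hspb1: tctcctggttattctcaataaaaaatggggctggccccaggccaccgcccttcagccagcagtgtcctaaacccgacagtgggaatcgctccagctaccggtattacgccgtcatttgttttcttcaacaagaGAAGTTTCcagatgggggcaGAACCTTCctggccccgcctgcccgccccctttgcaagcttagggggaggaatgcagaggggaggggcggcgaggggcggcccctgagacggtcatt
The match in Hspa1a starts 104 bases before the gene's start and the nearer of the 2 in Hspb1 starts 97 bases before it. These are matches of letters in a window and not tested sites.

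Among the immediate early genes the shift was uneven. Klf2, a Krüppel-like factor, read 8.61, 9.92 and 8.92 in APP samples and 9.68, 8.21, 9.91 and 9.02 in TAU samples, against 10.75, 11.47, 9.63 and 10.31 in WT samples. The WT samples were mostly higher but WT replicate 3 lay among the transgenic samples, and the difference was -1.36 (adjusted p = 0.458, limma). Fos, a subunit of AP-1, differed by -0.61 with an interval from -1.12 to -0.11. Its partner Jun differed by -0.23 with an interval from -0.62 to 0.17. Egr1 and Dusp1, which are induced by the same kinds of stimuli, differed by 0.17 and 0.01, and the interval of Dusp1 from -0.24 to 0.26 was inside 1.5-fold. Dusp1 read from 18.97 to 19.29, near the top of the scale, where saturation was not tested, so its interval sets no firm limit.

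**Figure D5:**
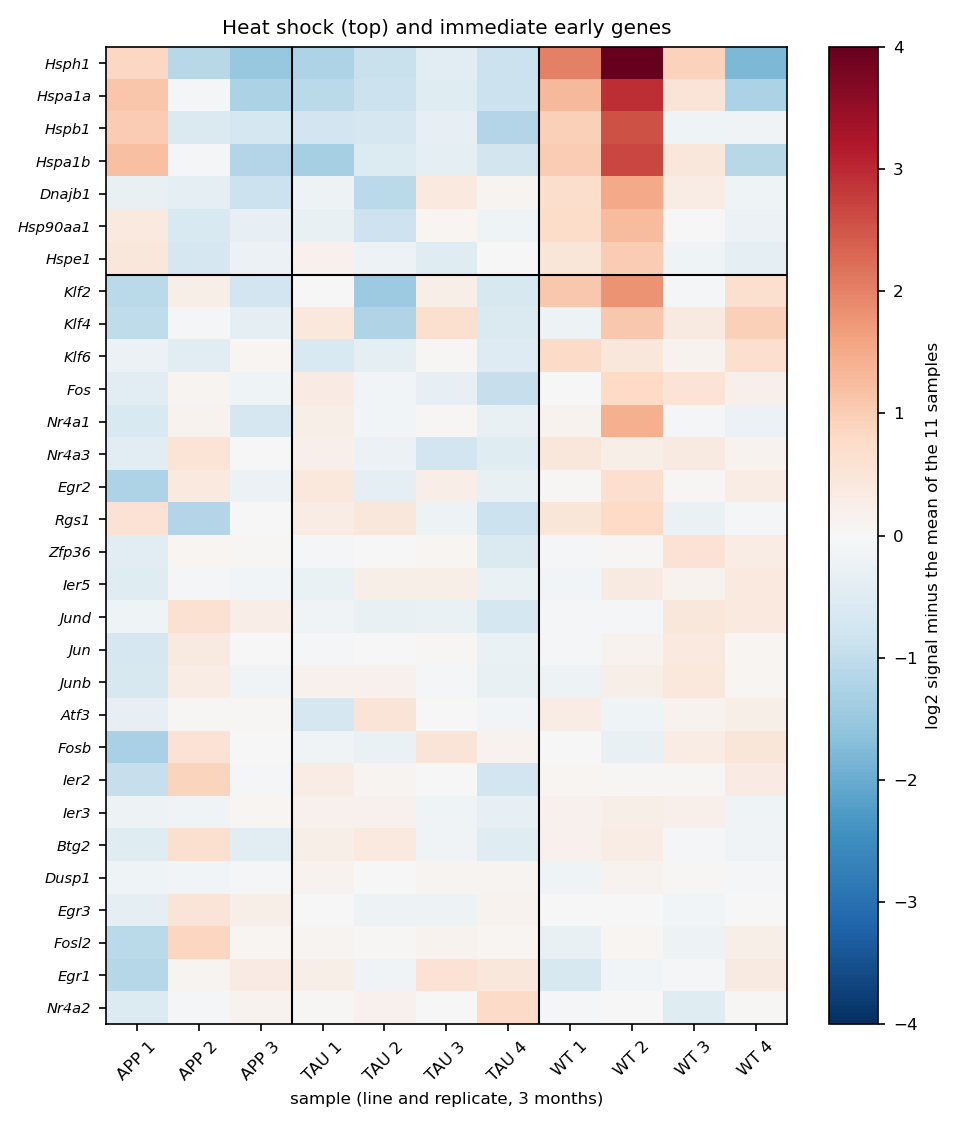
Log2 signal minus the mean of the 11 samples (colour) for the 7 heat shock genes (above the line) and 23 immediate early genes (below it), with samples in columns, APP, TAU and WT from left to right. WT replicates 1 and 2 are high for the heat shock genes, and WT replicate 4 is as low as the transgenic samples for Hsph1 and Hspa1a.

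Of 24 measured NF-kB cytokine and chemokine genes 0 were called, and 2 were lower at an unadjusted p under 0.05 (1.89% of all autosomal probe sets were), with a median of -0.06. These were Il1b and Tnf, named after their values were seen. Il1b, the cytokine interleukin 1 beta, read 12.41, 12.80 and 12.72 in APP samples and 13.25, 12.27, 11.75 and 11.93 in TAU samples, against 14.16, 12.93, 13.45 and 13.39 in WT samples. The groups overlapped through TAU replicate 1, and the difference was -1.03 with an interval from -1.65 to -0.42. Without TAU replicate 1 the pooled fit called 175 probe sets in all, and the autosomal ones among them were 2, Il1b and Txndc2. In that fit line and Y-linked level cannot be told apart. Tnf differed by -0.77 with an interval from -1.51 to -0.03.

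The other pathway lists held 0 called genes each by limma. The type I interferon genes had a median of -0.09 with 0 higher and 2 lower of 32 at an unadjusted p under 0.05, and all 32 intervals inside 2-fold. The lysosome genes had a median of -0.08 (0 of 27 at an unadjusted p under 0.05), the MHC class I genes -0.16 (0 of 11, 9 below 0), the MHC class II genes -0.21 (0 of 9, 8 below 0) and the complement genes -0.02 (0 of 14). The cholesterol synthesis genes had a median of 0.06 (0 of 16), the oxidative phosphorylation genes -0.08 (0 of 38) and the cytosolic ribosomal protein genes -0.15 (0 of 29, 26 below 0). Of the 20 glycolysis and HIF1 target genes 2 were higher at an unadjusted p under 0.05, Hk1, a hexokinase at background here, and Vegfa, a vascular growth factor (0.41). Of 31 cell cycle genes 2 were higher and 2 lower, and of 27 orthologues of Alzheimer risk genes 0 were either.

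Markers of other cells that the CD45+ and CD11b+ sort could hold were mostly dim. All 12 border and perivascular macrophage markers lay above 0, with a median of 0.21, 4 of them above background and 1 with an unadjusted p under 0.05, and their summed signal on the linear scale, in units of 1000, ranged from 4.93 to 9.83 in transgenic samples and from 3.5 to 8.61 in WT samples. Mrc1, the mannose receptor, differed by 0.50 with an interval from -0.22 to 1.22. The 12 astrocyte markers, 6 above background, had a median of 0.14, with 0.42 in APP and -0.02 in TAU, and summed in the same unit to between 12.1 and 45.4 in transgenic samples and between 5.96 and 29.8 in WT samples. Apoe is also made by astrocytes, and WT replicate 1, lowest for Apoe, was lowest for the astrocyte genes Clu (9.86) and Sparcl1 (10.94) as well. The same sample was also lowest for the homeostatic microglial genes Cx3cr1 (13.96) and Sall1 (10.29). The part of astrocytes in the Apoe values was not tested, and in bulk samples fewer cells of a type and less RNA per cell cannot be told apart. Medians were 0.12 for oligodendrocyte lineage, 0.11 for neuronal and 0.19 for endothelial and pericyte markers, with 1, 4 and 2 members above background, and Mbp, a myelin protein, varied from 9.28 to 12.02 in transgenic samples and from 7.45 to 11.19 in WT samples. Monocyte, neutrophil, dendritic, T and NK and B cell markers had medians from -0.13 to 0.08, with 0 called. Of the 8 dendritic cell markers, 2 of them above background, 7 lay below 0. The 8 include Siglech (mean 17.24 in transgenic and 17.37 in WT samples), also on the homeostatic list, so they do not mark dendritic cells alone. The median deviation of the 8 from each marker's mean over the 11 samples ranged from -0.14 to -0.015 in transgenic samples and from 0.04 to 0.26 in WT samples, with no overlap. Of the 25 lists scored this way, the immediate early and heat shock list did not overlap either (up to 0.069 in transgenic samples, from 0.077 in WT samples).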

How the data were processed

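Per the submitters' processing notes, the authors made log2 expression values with RMA in Transcriptome Analysis Console and deposited 1 value per probe set and sample. RNA amounts were 5 ng per sample, per the labels' protocols, and no source used here names a genome build. Arrays give no counts, so their number limits the precision. The array medians ranged from 6.9 to 7.1. Of 22203 probe sets, 19572 had 1 gene symbol, 18726 of these on autosomes (RefSeq, GRCm38.p6), and 2631 had none. The deposited log2 values were used unchanged. Limma 3.58.1 in R 4.3.3 fitted a mean per group over 11 samples, and the contrast was the mean of the 7 transgenic samples minus the mean of the 4 WT samples. P-values were two-sided and adjusted by Benjamini-Hochberg over all probe sets, with calls at 0.05. The fit was tested on simulated data. A symbol was read from its brightest probe set. Members and lists were chosen with earlier results of these data known. Named genes were fixed panels, intervals that excluded 0, the narrowest and widest intervals, and up to 8 shared shifts each way above background. Alternatives were samples fitted, replicate block, Y-linked covariate, normalization, weights, dim probe sets, variance prior and leaving out samples. Replicate numbers, taken from the titles, gave correlations of deviations of 0.12 to 0.40 for the 3 same-numbered pairs of APP with TAU, which were read as paired. They gave -0.07 to 0.21 for the pairs with WT, which were not, beside -0.38 to 0.32 for other numbers. An other-numbered pair of APP with TAU reached 0.21, so the pairing is uncertain. The values given for APP against TAU come from the fit without pairing, and the replicate block covers the WT samples too.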

Additional observations from a re-analysis of the deposited data

Results flagged for a closer look

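Single samples stood apart from the rest of their group in 6 of 112 groups of 4 samples tested by the gap over the range, where chance gives about 5.6. Nsd2 read 9.0 in TAU replicate 2, against 8.45 to 8.53 in the other TAU samples, and Rmnd5b read 9.97 in TAU replicate 1, against 9.61 to 9.67. In WT replicate 1, Apoe read 9.85 against 11.53 to 11.83 in the other WT samples, Cd63 read 15.5 against 16.04 to 16.13, and Lgals3, at background, read 7.28 against 7.57 to 7.59. Csf1 read 14.24 in WT replicate 4, against 13.53 to 13.64 in the other WT samples.

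For 33 of the 53 named genes the aged gated difference and the young difference were themselves different at an adjusted p under 0.05 (limma, 23 samples), in a comparison where age, pathology and gate change together. Over all autosomal probe sets 4.04% were called higher and 1.94% lower in that test. The panels among the named genes were chosen with earlier results of these data known, so the count of 33 is a description. Values are the aged gated minus the young log2 difference. Receptors and adaptors of the DAM list gave 1.58 for Trem2, 1.38 for Tyrobp, 8.31 for Axl, 6.31 for Itgax, 1.52 for Cd9 and 2.59 for Cd63. Its lipid-handling genes gave 7.04 for Apoe, 3.76 for Ch25h, 3.03 for Lgals3, 3.98 for Fabp5 and 4.72 for Plin2. Its proteolytic and secreted genes gave 7.63 for Cst7, 1.26 for Ctsb, 6.0 for Igf1, 3.51 for Csf1 and 2.62 for Mamdc2, and Axl, Itgax, Ch25h, Lgals3, Fabp5 and Mamdc2 were at background in the young samples. Homeostatic genes gave -1.39 for P2ry12, -1.93 for P2ry13, -2.63 for Tmem119, -0.73 for Csf1r, -2.15 for Sall1, -1.06 for Tgfbr1, -2.33 for Stab1 and -3.67 for Itga9. Immediate early genes gave -1.13 for Fos, -1.58 for Jun and -1.32 for Egr1.

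Of the shifts seen in both young lines, the higher genes Sfi1, Stac3 and Gm10408 gave -2.54, -1.32 and -1.88, with an aged gated difference of the opposite sign. Ctla2a gave 1.74, and the lower genes Pmaip1 and Nudt18 gave 1.23 and 0.65. These genes were chosen by their young difference, which the test subtracts, so for all but Ctla2a the choice itself favours the result. The aged gated difference by itself was not called for Stac3 (-0.44, adjusted p = 0.243, limma) or Nudt18 (0.16, adjusted p = 0.469, limma). It was called for Sfi1, Gm10408 and Pmaip1 (adjusted p = 0.0274, 0.0228 and 0.045, limma). The 53 named genes held 0 with an adjusted p under 0.05 between APP and TAU.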

How the results depend on the processing

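The count of 0 autosomal calls held in every other fit except those named here. With a replicate block 3 autosomal probe sets were called (Gm9758, Klrb1c and Obox3), of 105 called in all. Leaving out 1 sample gave 0 to 2 autosomal calls pooled, 0 to 5 for TAU, 0 to 0 for APP and 0 to 1 between APP and TAU. The highest counts were without TAU replicate 1 (5 and 2, of 149 and 175 called in all) or TAU replicate 3 (Ccr6). The adjustment runs over all probe sets, so calls off the autosomes ease the threshold for these few. The block changed no call between APP and TAU or in either line against WT. The 50 shared shifts became 22 with all 23 samples in the fit, 10 with the Y-linked covariate, 12 with dim probe sets left out (fewer probe sets tested), 45 to 126 leaving out 1 sample, and 125 without WT replicates 1 and 2, chosen after the data were seen. With the Y-linked covariate, in which only TAU replicate 1 separates line from Y-linked level, 17 DAM and 16 homeostatic intervals lay inside 2-fold, the DAM bounds reached -1.79 and 2.60 and the homeostatic bounds -2.08 and 2.40. The DAM median was then 0.21 and the immediate early and heat shock median -0.012. Leaving out 1 sample gave 35 to 39 DAM and 31 to 35 homeostatic intervals inside 2-fold, with medians from -0.13 to -0.04, from -0.11 to 0.04 and from -0.39 to -0.27 for the stress genes. Probe sets whose aged and young differences differed numbered 1121, and 1756 with array weights. Of 1158 values of named genes under alternatives, 32 moved by more than 1 SD between samples, 79 changed sign and 0 had an adjusted p under 0.05. Dim probe sets limit what can be said of the young values of Axl, Itgax, Fabp5, Ch25h, Mamdc2 and Lgals3.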
